A study of Homo sapiens with 8 samples.

Results

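The genes described here are 40 genes of glycolysis and the hypoxia response, chosen by name, with earlier results of these data known, and taken from the count table by an exact match to the symbol. All 40 were among the 25369 named genes of the table, and all 40 passed the filter on low counts that 17714 genes passed. They comprised 4 glucose and lactate transporters, 9 upper glycolysis genes, 2 enzymes that set fructose 2,6-bisphosphate, 6 lower glycolysis genes, 4 genes of pyruvate fate, 4 genes of the hypoxia-inducible factor (HIF) oxygen sensor and 11 hypoxia response genes.

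The cells were UWB1.289, a BRCA1-null line from a human serous ovarian cancer, and the same line transduced with the BRCA1 gene (BRCA1+). Each line received either the vehicle DMSO (control) or 0.5 uM entinostat, an inhibitor of class I histone deacetylases, for 24 h, and 2 poly(A) RNA libraries were sequenced per group, 8 in all. Both lines were grown in the same medium under 5% CO2 in air that no source describes as low in oxygen, so that all groups share this culture condition. One parental line was compared with 1 transduced line, so an effect of BRCA1 and any other difference between the lines cannot be told apart, and in bulk RNA fewer cells with a transcript and less of it per cell cannot be told apart either. No label says that replicates came from separate cultures, so p-values measure the spread between these libraries, which may be technical.

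Glycolysis splits glucose into pyruvate, which lactate dehydrogenase turns to lactate or which enters the mitochondria through pyruvate dehydrogenase. When oxygen is present, prolyl hydroxylases (EGLN genes) mark the HIF alpha subunits for destruction, and when it falls the subunits persist, pair with ARNT and bind a short DNA core (ACGTG or GCGTG) near genes for glucose uptake, glycolysis, angiogenesis and pH control. Because this control acts on the HIF protein, mRNA levels of HIF1A and EPAS1 do not report HIF activity.

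The libraries held 31900158 to 53549893 counts, and the 40 genes took 1.64 to 1.68% of the counts in every library. BRCA1 itself had 92.3 to 98.9 CPM (reads per 1e+06 counts after TMM scaling) in BRCA1+ control and 21.0 to 22.4 CPM in BRCA1-null control libraries, which fits the labels. Of the epithelial and Mullerian markers, KRT7, KRT8, KRT18, EPCAM and PAX8 were abundant in every library (summed level of all 9 markers 13997 to 18433 CPM), whereas WT1 was near 0 (at most 0.50 CPM). The summed endothelial markers were 9.48 to 16.2 CPM in BRCA1+ control and 27.3 to 38.3 in BRCA1+ entinostat libraries. In BRCA1-null cells they were 36.6 to 54.3 CPM in control and 75.1 to 92.9 in entinostat libraries. CDH5 alone ranged from 4.15 to 84.1 CPM over all libraries. Fibroblast markers (12.9 to 59.3 CPM, from COL1A1 and COL1A2, with COL3A1, DCN and LUM at 0) also moved with line and treatment. So did leukocyte markers (14.6 to 36.6 CPM, mostly CD68, with CD3E and CD79A at 0 to 4 counts). The part of all these markers in the results below was not tested.

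Levels per kilobase of transcript ranked GAPDH first at a mean of 1979 CPM per kilobase over the 8 libraries, ahead of ENO1 at 1121, PKM at 682, LDHB at 502 and ALDOA at 471. At the other end stood PDK3 at 0.818, ALDOC at 0.225, SLC2A3 at 0.131 and CA9 at 0.115 CPM per kilobase. The classical hypoxia marker CA9 had 3 to 20 counts in a library and the high-affinity glucose transporter SLC2A3 had 11 to 46, so both stood close to the floor of 3 counts per library. GAPDH, PGAM1 and BNIP3 have 65, 13 and 44 annotated pseudogenes named after them, and 18 of the 40 genes have at least 1, so their counts are uncertain where reads were split or dropped between copies.

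**Figure D1:**
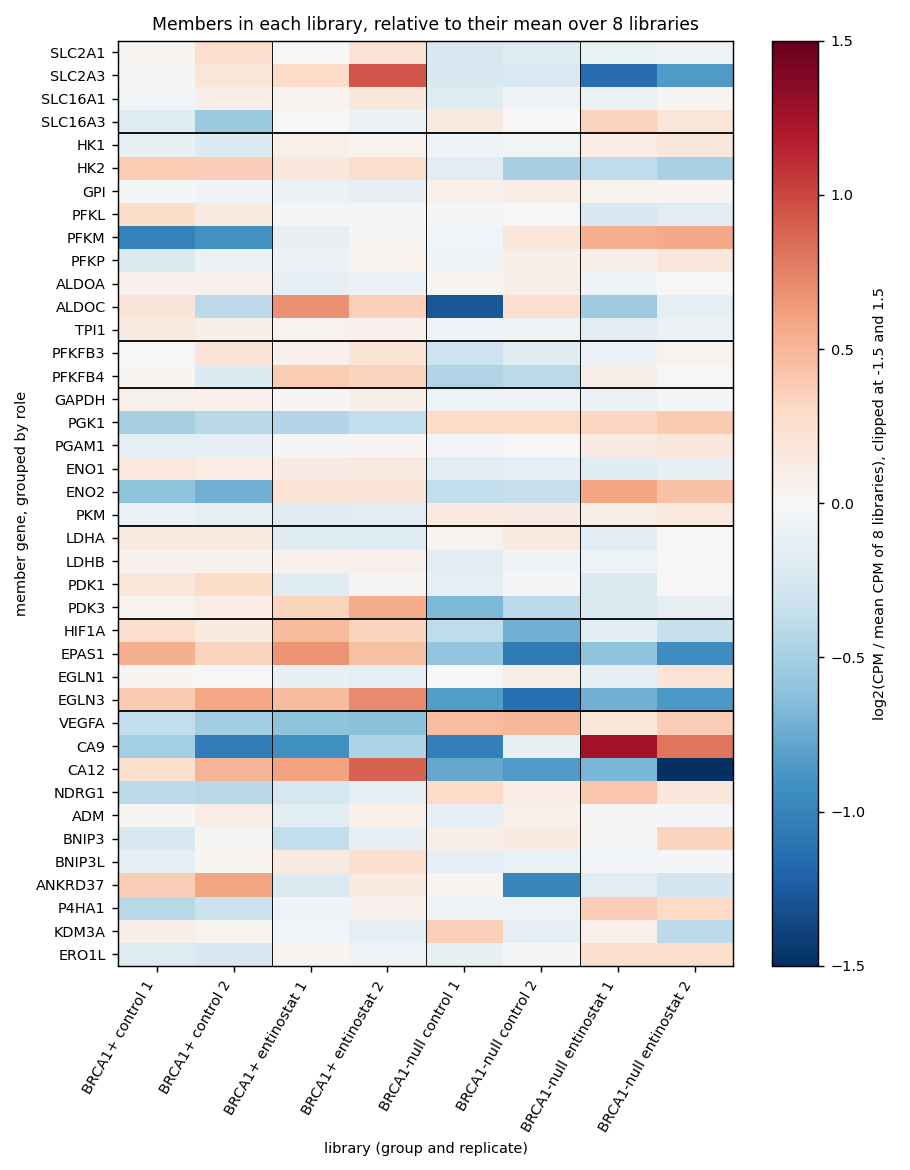
Level of each of the 40 genes (rows, grouped by role and separated by black lines) in each of the 8 libraries (columns), as log2 of CPM over the gene's mean CPM of the 8 libraries, with the colour scale ending at -1.5 and 1.5. EGLN3, EPAS1 and CA12 are red in the 4 BRCA1+ libraries and blue in the 4 BRCA1-null libraries, PGK1, VEGFA and NDRG1 the reverse, while ENO2 and PFKM darken towards red with entinostat in both lines.

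The DNA core that HIF binds was looked for from 250 bases before to 50 bases after the start of each gene (RefSeq on GRCh38.p14, both strands), and 35 of the 40 genes matched a sequence. ACGTG, which reads as CACGT on the opposite strand, was present in 15 of these 35 windows (42.9%) and in 21.6% of all 27305 windows, and GCGTG in 19 (54.3%) against 36.3%. Either core, or both, was present in 77.1% of the windows of these genes and in 48.4% of all windows. The 45 bases around the ACGTG nearest to and before the start are shown for the 10 genes that hold one there and that either differed between the lines in DMSO or changed with entinostat in at least 1 line, so that the sequence can be read beside their values. Capitals mark each ACGTG or CACGT, and CACGTG, where both overlap, is also the core that MYC and USF proteins bind.
ENO2 (chr12:6914442-6914486, plus strand): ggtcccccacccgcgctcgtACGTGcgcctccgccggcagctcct
P4HA1 (chr10:73096928-73096972, minus strand): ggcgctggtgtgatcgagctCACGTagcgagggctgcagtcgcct
ERO1L, listed as ERO1A (chr14:52695648-52695692, minus strand): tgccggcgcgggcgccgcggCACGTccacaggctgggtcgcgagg
PGK1 (chrX:78104045-78104089, plus strand): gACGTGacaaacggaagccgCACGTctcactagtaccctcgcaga
LDHA (chr11:18394470-18394514, plus strand): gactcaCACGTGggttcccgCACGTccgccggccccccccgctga
ALDOA (chr16:30064081-30064125, plus strand): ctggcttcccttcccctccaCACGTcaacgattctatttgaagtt
HK2 (chr2:74834059-74834103, plus strand): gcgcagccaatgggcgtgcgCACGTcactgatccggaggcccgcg
PDK3 (chrX:24465205-24465249, plus strand): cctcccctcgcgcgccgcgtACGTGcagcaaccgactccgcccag
ANKRD37 (chr4:185396678-185396722, plus strand): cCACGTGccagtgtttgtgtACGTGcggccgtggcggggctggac
GAPDH (chr12:6535164-6535208, plus strand): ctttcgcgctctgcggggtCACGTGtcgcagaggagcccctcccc

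The first comparison asked how BRCA1-null and BRCA1+ cells differed without drug. In DMSO, 24 of the 40 genes (60%) differed between the lines at an edgeR adjusted p under 0.05, where 42.2% of all 17714 genes tested did. The lower side held 16 genes and the higher side 8, against 21% lower and 21.1% higher of all genes, and the median log2 fold change was -0.08 against 0.01 for all genes. The split depends on the scaling and the filter. Upper-quartile factors gave 12 higher and 11 lower. They moved all genes too, to 4157 higher and 3247 lower, against 3745 and 3727 with TMM. A stricter filter on low counts gave 13 higher and 11 lower, with 3206 higher and 3085 lower among the 13287 genes that it left. A called difference of at least 1 on the log2 scale was found for 4 genes, EGLN3, EPAS1, CA12 and PFKM (12.4% of all genes had one). In this comparison "higher" and "lower" refer to BRCA1-null relative to BRCA1+ cells.

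The 2 largest differences were in oxygen sensor genes, and the 3 of these 4 genes that passed were all lower. EGLN3, a prolyl hydroxylase that is itself a HIF target (chr14:34393421-34420284, gene positions here and later being on hg19), had 75.2 and 85.5 CPM in BRCA1+ control libraries against 32.1 and 26.3 CPM in BRCA1-null control libraries. The 4 libraries did not overlap, and EGLN3 was 2.76-fold lower (log2 fold change -1.46 ± 0.12 SE, n = 2 per group, edgeR adjusted p = 2.24e-05). EPAS1, which encodes the HIF-2 alpha subunit (chr2:46524541-46613842), had 150 and 129 CPM in BRCA1+ against 68.5 and 49.3 CPM in BRCA1-null cells, 2.38-fold lower (-1.25 ± 0.16, edgeR adjusted p = 0.000308). HIF1A, encoding HIF-1 alpha (chr14:62162119-62214977), had 243 and 228 CPM against 157 and 125 CPM, 1.67-fold lower (-0.74 ± 0.11, edgeR adjusted p = 0.000594). Its counts may include reads of the antisense genes HIF1A-AS1 (246 to 547 counts) and HIF1A-AS2 (1174 to 1999 counts), because the library kit does not mark strand. EGLN1, the prolyl hydroxylase regarded as the main oxygen sensor, had 52.9 and 51.9 CPM in BRCA1+ and 52.1 and 54.8 CPM in BRCA1-null cells, which overlapped (0.03 ± 0.10, edgeR adjusted p = 0.832).

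Of the 11 hypoxia response genes, 3 were higher, 2 were lower and 6 did not pass, a share called of 45.5% against 42.2% of all genes. VEGFA, the angiogenic growth factor (chr6:43737946-43754223), had 47.7 and 43.1 CPM in BRCA1+ and 84.6 and 87.1 CPM in BRCA1-null control libraries, 1.89-fold higher (0.92 ± 0.08, edgeR adjusted p = 3.01e-05). NDRG1, a stress-induced gene (chr8:134249414-134309547), had 68.4 and 67.9 CPM in BRCA1+ against 110.6 and 97.7 CPM in BRCA1-null cells (0.61 ± 0.09, edgeR adjusted p = 0.000865). P4HA1, a collagen prolyl hydroxylase, was the third higher gene, with 77.9 and 82.8 against 100.3 and 98.1 CPM. By contrast, CA12, a membrane carbonic anhydrase (chr15:63615730-63674075), had 5.45 and 6.60 CPM against 2.72 and 2.58 CPM, 2.29-fold lower (-1.19 ± 0.27, edgeR adjusted p = 0.00648). ANKRD37, a small HIF target (chr4:186317840-186321390), had 62 and 83 counts against 56 and 33, a log2 fold change of -0.92 ± 0.31 (edgeR adjusted p = 0.0412) that lost its call in 11 of the alternatives tried. UFSP2, with 542 to 906 counts, partly overlaps ANKRD37 on the opposite strand, so counts of ANKRD37 may include its reads. The 6 genes that did not pass were CA9, BNIP3, ERO1L, KDM3A, BNIP3L and ADM, whose log2 fold changes lay between -0.09 and 0.30. CA9 had 5 and 4 counts against 4 and 9, a depth at which a change of this size is not detectable (0.30 ± 0.60, edgeR adjusted p = 0.718).

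Among the phosphofructokinases, PFKM was higher and PFKL lower. PFKM, the muscle-type phosphofructokinase (chr12:48499656-48540187), had 38.0 and 40.9 CPM in BRCA1+ and 74.7 and 87.2 CPM in BRCA1-null cells, 2.05-fold higher (1.04 ± 0.09, edgeR adjusted p = 2.92e-05). Its liver-type partner PFKL was 1.16-fold lower (-0.22 ± 0.06, edgeR adjusted p = 0.0226), and the platelet-type PFKP, the most abundant of the 3, did not pass (0.17 ± 0.07, edgeR adjusted p = 0.098). HK2, the inducible hexokinase that commits glucose to the cell (chr2:75059782-75120481), had 178 CPM in both BRCA1+ libraries and 123 and 97.7 CPM in BRCA1-null libraries, 1.62-fold lower (-0.69 ± 0.10, edgeR adjusted p = 0.000486). The constitutive HK1 did not pass (0.10 ± 0.05, edgeR adjusted p = 0.167). PFKM overlaps SENP1 on the opposite strand (1143 to 2183 counts), whose reads cannot be separated here.

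PGK1, the first ATP-yielding enzyme of glycolysis (chrX:77359666-77382324), had 276 and 293 CPM in BRCA1+ and 480 and 482 CPM in BRCA1-null cells, 1.69-fold higher with the smallest p of the 40 genes (0.76 ± 0.05, edgeR adjusted p = 1.13e-05). The major enolase ENO1 was lower (4063 and 3943 CPM against 3248 and 3346, -0.28 ± 0.04, edgeR adjusted p = 0.000904), while the neuronal-type ENO2 was higher (12.9 and 11.9 CPM against 15.1 and 15.5, 0.30 ± 0.09, edgeR adjusted p = 0.0284). PKM, pyruvate kinase, was 1.19-fold higher (0.26 ± 0.04, edgeR adjusted p = 0.00152). GAPDH, the gene against which the study normalised its quantitative RT-PCR, had 3937 and 3947 CPM against 3553 and 3588 CPM, 1.10-fold lower (-0.14 ± 0.04, edgeR adjusted p = 0.0274). That call was lost with upper-quartile factors, a stricter filter, DESeq2, the likelihood ratio test and without any single DMSO library. GAPDH and PKM were singled out after their values were seen. The aldolases ALDOA (-0.00 ± 0.04, edgeR adjusted p = 0.978) and ALDOC (-0.17 ± 0.51, edgeR adjusted p = 0.815) did not pass.

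Both fructose 2,6-bisphosphate enzymes, which set the strongest activator of phosphofructokinase, were lower. PFKFB3 had 91.3 and 104.3 CPM against 74.0 and 80.5 CPM (-0.34 ± 0.09, edgeR adjusted p = 0.0133) and PFKFB4 had 11.8 and 9.999 CPM against 8.42 and 8.70 CPM (-0.34 ± 0.11, edgeR adjusted p = 0.035). The PFKFB4 call was lost in 10 of the 17 alternatives, DESeq2 among them, and its log2 fold change lay between -0.46 and -0.22 over them. Of the pyruvate dehydrogenase kinases, which hold pyruvate out of the mitochondria, PDK3 and PDK1 were also lower. PDK3 had 11.2 and 11.6 against 6.75 and 8.11 CPM (-0.61 ± 0.13, edgeR adjusted p = 0.00432). PDK1 had 32.6 and 34.9 against 26.2 and 28.4 CPM (-0.31 ± 0.10, edgeR adjusted p = 0.0371), a call lost in 7 of the 17 alternatives. PDK2 and PDK4, which are outside the chosen genes, did not pass. PDK2 had 13.5 and 13.2 CPM in BRCA1+ against 15.4 and 14.4 CPM in BRCA1-null control libraries. PDK4 had 0.775 and 0.828 against 1.14 and 0.828 CPM. The pair of lactate dehydrogenases differed little, with LDHB at -0.16 ± 0.05 (edgeR adjusted p = 0.0321) and LDHA at -0.04 ± 0.06 (edgeR adjusted p = 0.617).

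Among the transporters, the glucose importer SLC2A1 was lower, with 94.1 and 110.0 CPM in BRCA1+ against 77.7 and 81.2 CPM in BRCA1-null cells (-0.36 ± 0.09, edgeR adjusted p = 0.0121). The lactate exporter SLC16A3 was higher, with 48.5 and 37.6 CPM against 60.8 and 55.6 CPM (0.44 ± 0.12, edgeR adjusted p = 0.0142). SLC16A1, the other monocarboxylate transporter, did not pass (-0.15 ± 0.08, edgeR adjusted p = 0.15), nor did SLC2A3 (-0.34 ± 0.35, edgeR adjusted p = 0.468). Of the BNIP3 pair, which act in mitophagy, neither BNIP3 (0.23 ± 0.12, edgeR adjusted p = 0.175) nor BNIP3L (-0.07 ± 0.08, edgeR adjusted p = 0.511) passed.

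Of the 22 calls named in this comparison, 11 held under all 17 alternatives (EGLN3, EPAS1, HIF1A, HK2, PDK3, ENO1, PFKM, VEGFA, PGK1, NDRG1 and PKM). Fewer of these genes, and fewer of all genes tested, were called without BRCA1-null control replicate 1 or without BRCA1+ control replicate 2. Whether the share called stayed above that of all genes is not given, because a single library then stands for a group. The calls of SLC16A3, SLC2A1 and PFKFB3 were lost without either of those libraries, that of CA12 without the latter.

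**Figure D2:**
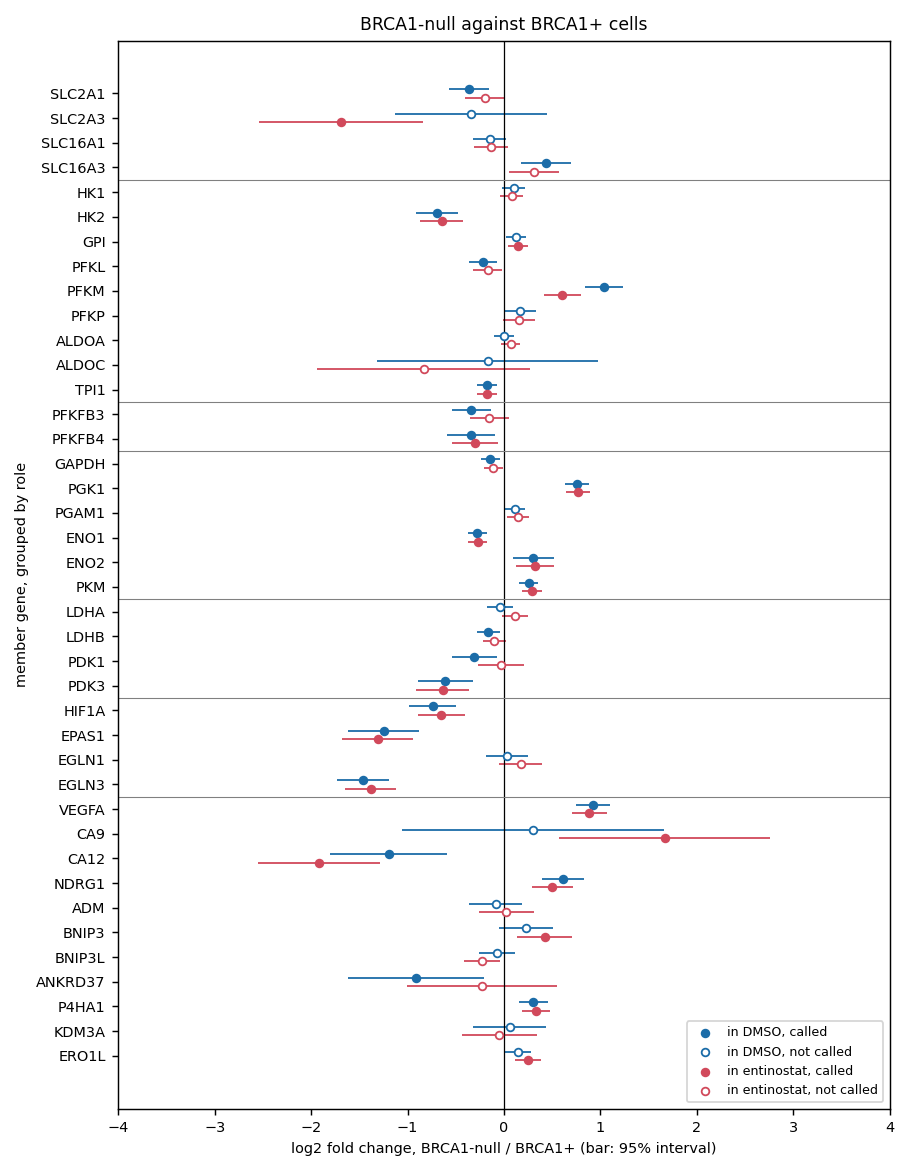
Log2 fold change between BRCA1-null and BRCA1+ cells for each of the 40 genes, in DMSO (blue) and in entinostat (red), with 95% intervals from the edgeR fit as bars. Filled points passed at an adjusted p under 0.05, open points did not, and horizontal lines separate the roles. EGLN3 at -1.46, EPAS1 at -1.25 and CA12 at -1.19 lie farthest to the left in DMSO and PFKM at 1.04 farthest to the right.

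The same lines were then compared under entinostat. Between entinostat-treated cells 21 of the 40 genes (52.5%) differed, 11 higher and 10 lower in BRCA1-null cells, against 39.4% of all genes (20.5% higher and 18.9% lower). A called difference of at least 1 on the log2 scale was found for 5 of them (10.5% of all genes). The same 3 oxygen sensor genes were lower. EGLN3 had 79.7 and 93.6 CPM in BRCA1+ against 35.0 and 31.5 CPM in BRCA1-null cells (-1.38 ± 0.12, edgeR adjusted p = 3.13e-05). EPAS1 had 164 and 139 against 67.9 and 54.1 CPM (-1.31 ± 0.16, edgeR adjusted p = 0.000249), and HIF1A had 284 and 258 against 183 and 162 CPM (-0.65 ± 0.11, edgeR adjusted p = 0.00123). EGLN1 again overlapped between the lines. The carbonic anhydrase CA12 showed the largest difference of the comparison, 7.03 and 8.58 CPM against 2.88 and 1.22 CPM (-1.92 ± 0.28, edgeR adjusted p = 0.000631).

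The higher genes were led by CA9, but on few reads, with 3 and 6 counts in BRCA1+ and 20 and 13 counts in BRCA1-null libraries (1.67 ± 0.49, edgeR adjusted p = 0.0223). Its 95% interval ran from 0.57 to 2.76, and the call was lost with DESeq2 and without BRCA1+ entinostat replicate 1, BRCA1+ entinostat replicate 2 or BRCA1-null entinostat replicate 1. VEGFA had 40.6 and 40.3 CPM against 70.2 and 79.4 CPM (0.88 ± 0.08, edgeR adjusted p = 4.42e-05), PGK1 288 and 302 against 490 and 514 CPM (0.77 ± 0.05, edgeR adjusted p = 1.18e-05) and PFKM 70.6 and 78.1 against 113 and 114 CPM (0.60 ± 0.09, edgeR adjusted p = 0.000523). NDRG1 was higher by 0.50 ± 0.09 (edgeR adjusted p = 0.00271), and BNIP3, which had not passed in DMSO, by 0.42 ± 0.13 (edgeR adjusted p = 0.0256), a call lost without BRCA1+ entinostat replicate 1 or BRCA1-null entinostat replicate 2. ENO2 was higher by 0.32 ± 0.09 (edgeR adjusted p = 0.0152), a call lost without BRCA1+ entinostat replicate 1, BRCA1+ entinostat replicate 2 or BRCA1-null entinostat replicate 1. The remaining higher genes, P4HA1, PKM, ERO1L and GPI, lay between 0.14 and 0.33.

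Among the lower genes, SLC2A3 had 20 and 46 counts in BRCA1+ and 11 and 12 counts in BRCA1-null libraries (-1.69 ± 0.38, edgeR adjusted p = 0.0065), a call lost without BRCA1+ entinostat replicate 2, the library with 46. HK2 had 154 and 165 against 106 and 97.8 CPM (-0.65 ± 0.10, edgeR adjusted p = 0.000782) and PDK3 13.6 and 15.7 against 9.21 and 9.77 CPM (-0.64 ± 0.12, edgeR adjusted p = 0.00291). ENO1 was lower by a log2 fold change of -0.27 ± 0.04 (edgeR adjusted p = 0.0011), PFKFB4 by -0.31 ± 0.11 (edgeR adjusted p = 0.0455) and TPI1, triose phosphate isomerase, completed the lower side. The PFKFB4 call was lost in 9 alternatives, among them each of the 4 entinostat libraries left out. The paralogs that did not pass in this comparison had log2 fold changes between -0.83 (ALDOC) and 0.31 (SLC16A3).

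The drug itself was examined next, within each line. Entinostat changed 9 of the 40 genes in BRCA1+ cells (22.5%), 6 upwards and 3 downwards, against 14.1% of all genes tested (8.13% upwards and 6% downwards). With upper-quartile factors the split was 8 upwards and 1 downwards, and for all genes 1753 upwards and 665 downwards, against 1441 and 1062 with TMM. In BRCA1-null cells it changed 6 of the 40 genes (15%), all upwards, against 10.8% of all genes (7.57% upwards and 3.19% downwards). No called change of the 40 genes reached 1 on the log2 scale, which 2.91% of all genes did in BRCA1+ and 3% in BRCA1-null cells. The 6 genes that rose, ENO2, PFKM, PFKFB4, P4HA1, ERO1L and HK1, were the same in both lines with edgeR. The comparisons share no library but are not independent, because they come from the same fit with a shared estimate of the spread. Same-numbered libraries of the different lines also deviated together (correlation 0.234 to 0.298). The share of all genes that rose in both lines is not given here. Some of these calls were not stable, since that of HK1 in BRCA1-null cells was lost in 13 of the 17 alternatives, DESeq2 among them, that of ERO1L in BRCA1+ cells in 10 and that of PFKFB4 in BRCA1-null cells in 7.

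ENO2, the neuron-specific enolase (chr12:7023614-7032859), rose from 12.9 and 11.9 to 22.8 and 22.4 CPM in BRCA1+ cells (0.86 ± 0.09, edgeR adjusted p = 0.00102). In BRCA1-null cells it rose from 15.1 and 15.5 to 29.6 and 26.7 CPM (0.88 ± 0.09, edgeR adjusted p = 0.00124). Every treated library stood above every control library, and these were calls that held under all 17 alternatives. PFKM rose from 38.0 and 40.9 to 70.6 and 78.1 CPM in BRCA1+ cells (0.92 ± 0.09, edgeR adjusted p = 0.00065). In BRCA1-null cells it rose from 74.7 and 87.2 to 113 and 114 CPM (0.48 ± 0.08, edgeR adjusted p = 0.0102). The level that PFKM reached in treated BRCA1+ cells was thus close to that of untreated BRCA1-null cells, and in the first line the call held under all alternatives, in the second it was lost without BRCA1-null control replicate 1 or BRCA1-null entinostat replicate 1.

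P4HA1, which hydroxylates prolines of collagen (chr10:74766980-74856732), rose from 77.9 and 82.8 to 99.7 and 108.7 CPM in BRCA1+ cells (0.38 ± 0.07, edgeR adjusted p = 0.00755). In BRCA1-null cells it rose from 100.3 and 98.1 to 134 and 128 CPM (0.40 ± 0.06, edgeR adjusted p = 0.00752). ERO1L, an oxidase of the endoplasmic reticulum that forms disulphide bonds (chr14:53108605-53162419), rose from 97.9 and 94.5 to 115 and 108 CPM (0.21 ± 0.06, edgeR adjusted p = 0.0441) and from 104 and 109 to 132 and 134 CPM (0.32 ± 0.06, edgeR adjusted p = 0.0128), respectively. PFKFB4 rose from 11.8 and 9.999 to 14.9 and 14.5 CPM (0.44 ± 0.11, edgeR adjusted p = 0.0282) and from 8.42 and 8.70 to 12.2 and 11.6 CPM (0.47 ± 0.11, edgeR adjusted p = 0.0284). HK1 rose by 0.22 ± 0.05 (edgeR adjusted p = 0.0278) and 0.20 ± 0.05 (edgeR adjusted p = 0.0459). ENO2, P4HA1 and ERO1L hold an ACGTG in the windows printed above, whereas the windows of HK1, PFKM and PFKFB4 hold none. The other core, GCGTG, is present in the windows of PFKFB4 and ERO1L and absent from those of HK1, PFKM, ENO2 and P4HA1. Of the matched windows of all the chosen genes, 42.9% hold an ACGTG. A single window per gene was searched.

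The 3 genes that fell in BRCA1+ cells were LDHA, which makes lactate, PFKL and ALDOA. LDHA dropped from 696 and 693 to 557 and 554 CPM (-0.32 ± 0.06, edgeR adjusted p = 0.00911), with replicates closer together than the change. PFKL dropped from 108 and 98.4 to 87.9 and 87.7 CPM (-0.23 ± 0.06, edgeR adjusted p = 0.0444) and ALDOA from 1589 and 1592 to 1395 and 1426 CPM (-0.17 ± 0.05, edgeR adjusted p = 0.0346). These calls were not stable. That of PFKL was lost in 12 of the 17 alternatives, upper-quartile factors and both other filters among them. That of ALDOA was lost in 9, DESeq2 and the likelihood ratio test among them, and that of LDHA without either BRCA1+ entinostat library. In BRCA1-null cells LDHA had 655 and 696 CPM in DMSO and 568 and 631 CPM in entinostat, which did not pass. None of the 4 oxygen sensor genes and none of the 4 transporters passed in either line with edgeR at an adjusted p under 0.05, while at an unadjusted p under 0.05, which 29% of all genes reached in BRCA1+ and 27.4% in BRCA1-null cells, SLC16A3 did in the former and HIF1A in the latter. The edgeR likelihood ratio test also called none of these 8 genes, and DESeq2 called 1, SLC16A3 in BRCA1+ cells. With the replicate number as a block, edgeR did call HIF1A higher in both lines and SLC16A3 higher in BRCA1+ cells. No label says that this number marks a batch. GAPDH had 3786 and 3973 CPM in treated BRCA1+ and 3510 and 3663 CPM in treated BRCA1-null cells and overlapped its controls in both lines.

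Among genes that did not pass, log2 fold changes with entinostat lay between -0.49 (ANKRD37) and 0.59 (SLC2A3) in BRCA1+ cells and between -0.76 (SLC2A3) and 1.50 (CA9, from 4 and 9 to 20 and 13 counts) in BRCA1-null cells. Leaving out any single library of a line lowered the number of calls in that line, for these genes and for all genes tested alike. A single library then stands for its group, so counts of calls are not given for these fits.

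**Figure D3:**
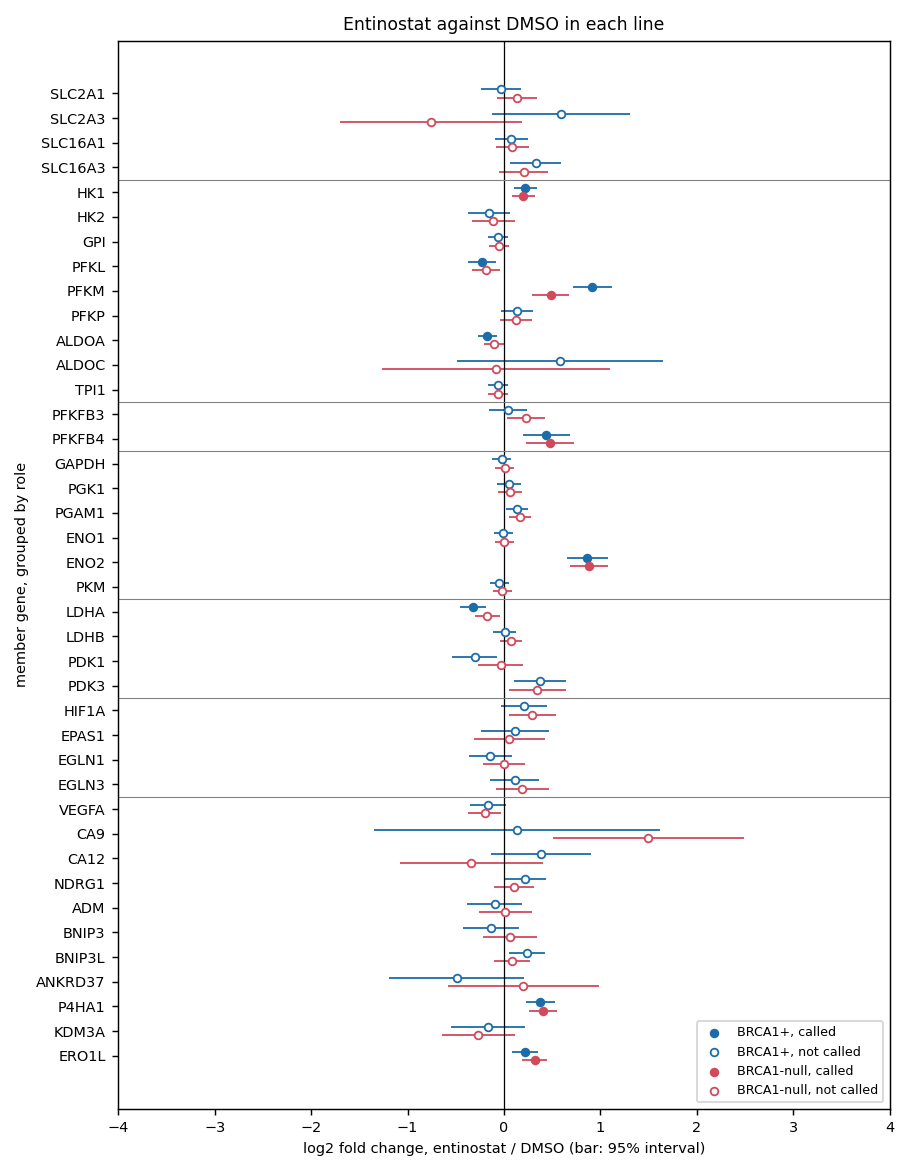
Log2 fold change of each of the 40 genes with entinostat against DMSO, in BRCA1+ cells (blue) and BRCA1-null cells (red), with 95% intervals from the edgeR fit as bars. Filled points passed at an adjusted p under 0.05 and open points did not. ENO2 at 0.86 and 0.88 and PFKM at 0.92 and 0.48 stand apart on the right, and the interval of CA9 is wide because it has 3 to 20 counts per library.

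Whether the lines responded differently was tested as an interaction. None of the 40 genes passed with edgeR (smallest adjusted p = 0.967), DESeq2 or the likelihood ratio test. With edgeR 0 of all 17714 genes tested passed either, so this count does not set the 40 genes apart. Of all genes, DESeq2 called 3 higher and 8 lower, and the likelihood ratio test 5 higher and 13 lower. At an unadjusted p under 0.05 there were 2 of the 40 genes, 5%, against 4.67% of all genes. PFKM rose less in BRCA1-null cells (difference of log2 fold changes -0.43 ± 0.12, unadjusted p = 0.00627 and adjusted p = 0.967 in edgeR). SLC2A3 followed with -1.35 ± 0.53 (unadjusted p = 0.03 in edgeR) and PDK1 with 0.27 ± 0.15 (unadjusted p = 0.0965 in edgeR). A response that passed in 1 line and not in the other, such as the fall of LDHA, cannot be read as a difference in response (for LDHA the difference was 0.15, 95% interval -0.04 to 0.34).

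Paralogs of 1 step were compared per kilobase of transcript, as shares of their summed level. PFKM made up 8.55% ± 0.17 (SD, n = 2) of the phosphofructokinase transcripts in BRCA1+ control cells and 15.4% ± 0.73 in BRCA1-null control cells. With entinostat its share was 14.6% ± 0.21 and 19.7% ± 0.42, respectively. PFKP stayed the leading form at 64.8 to 67.9% in every library, while the share of PFKL was 25.1% in BRCA1+ control and 15.2% in BRCA1-null entinostat cells. HK1 made up 68.7% ± 0.92 of the hexokinase pair in BRCA1+ control and 79.2% ± 2.98 in BRCA1-null control cells, where HK2 was lower and HK1 itself did not pass, and 74.0% and 82.5% with entinostat.

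LDHA was the lesser of the lactate dehydrogenase pair throughout, with 34.2% ± 0.087 in BRCA1+ control, 29.2% ± 0.15 in BRCA1+ entinostat, 36.2% ± 0.29 in BRCA1-null control and 32.4% ± 0.82 in BRCA1-null entinostat cells. EGLN3 exceeded EGLN1 in every library, with 78.7 and 81.1% of that pair in BRCA1+ control but 61.7 and 55.6% in BRCA1-null control libraries. With EGLN2, which is not one of the 40 genes, counted as well, EGLN3 took 45.8 to 51.8% in the 4 BRCA1+ libraries and less in the 4 BRCA1-null libraries (28.8% in control replicate 1), where EGLN2 led at 49.8 to 55.0%. HIF1A exceeded EPAS1 in every library, from 65.5 and 67.4% of the pair in BRCA1+ control to 73.0 and 74.8% in BRCA1-null control libraries, since EPAS1 differed more. SLC16A3 held 23.9 and 18.1% of the monocarboxylate pair in BRCA1+ control and 30.3 and 26.6% in BRCA1-null control libraries. In other pairs 1 form dominated, and the lowest share was 99.1% for SLC2A1 against SLC2A3, 99.9% for ALDOA against ALDOC and 98.8% for ENO1 against ENO2. The first of these leaves out other glucose transporters, so it is not the share of SLC2A1 among all of them. SLC2A6, outside the 40 genes, had 44.8 and 39.8 CPM in BRCA1+ control and 58.4 and 64.6 CPM in BRCA1-null control libraries. Its length is 2546 bases, and that of SLC2A1, with 77.7 and 81.2 CPM in BRCA1-null control, is 3670 bases. The mean share of ENO2 in that pair was 0.414% in control and 0.755% in treated BRCA1+ cells, and 0.619% and 1.13% in BRCA1-null cells. With ENO3 counted as well, the lowest share of ENO1 was 96.3%, and ENO3 exceeded ENO2 in every library.

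**Figure D4:**
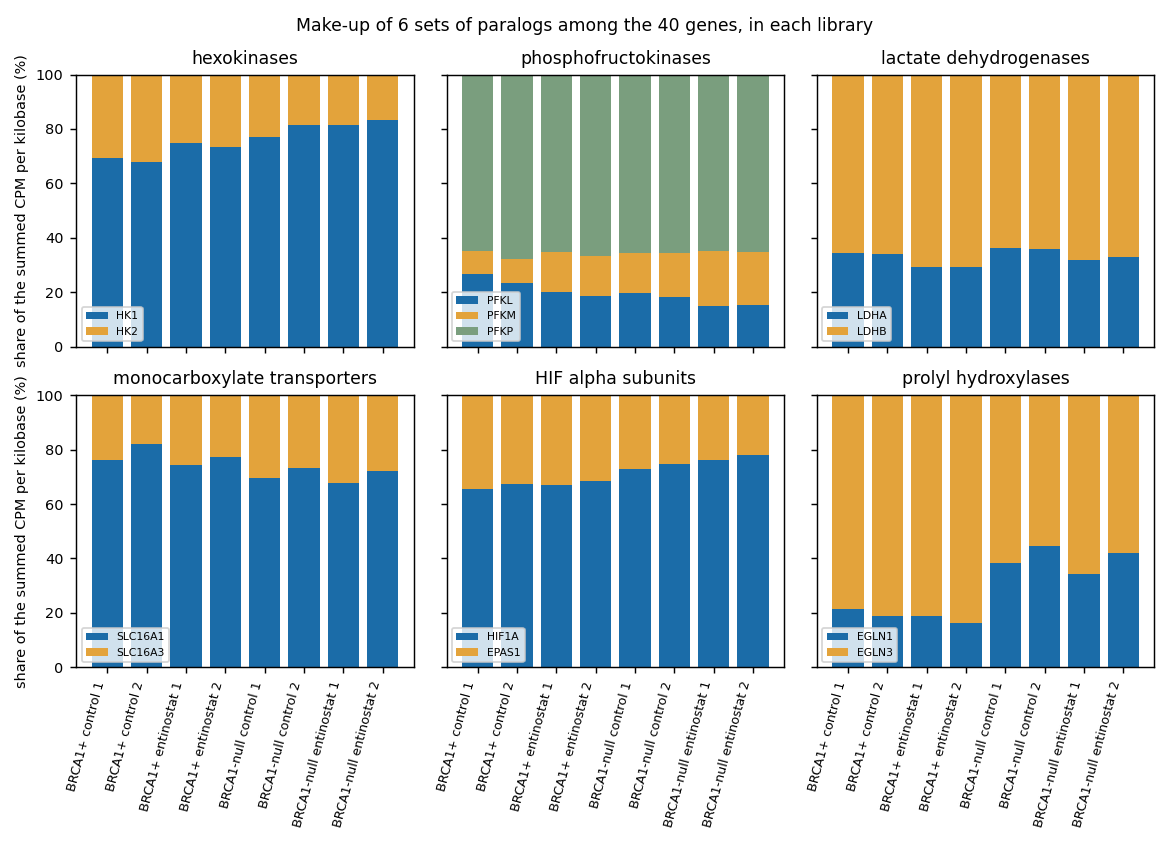
Share of the summed level (CPM per kilobase, in percent) that each paralog takes in each of the 8 libraries, for 6 sets of paralogs among the 40 genes. The share of PFKM is smallest in the BRCA1+ control libraries at 8.43 and 8.67%, and the share of EGLN3 drops from 78.7 to 83.8% in the BRCA1+ libraries to 55.6 to 65.7% in the BRCA1-null libraries.

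Each gene was also set beside the up to 50 nearest tested genes, 25 on each side. For PGK1 the neighbours on the X chromosome (71521488-99987135) had a median log2 fold change of 0.73 in DMSO, with 30 of 50 called higher and 2 lower, against 0.76 for PGK1 itself. PKM at 0.26 was below its neighbours (median 0.59, 29 higher and 2 lower), and NDRG1 at 0.61 had neighbours at a median of 0.29. CA9 lay in a region where 36 of 50 neighbours were lower (median -0.61). By contrast, EGLN3, EPAS1, CA12, PDK3 and PFKM had neighbour medians between -0.02 and 0.02, and those of HIF1A, VEGFA and HK2 were -0.12, -0.15 and -0.17. Over the 40 genes, 16 lay within 0.2 of their neighbour median and 3 had a neighbour median beyond 0.3 in either direction.

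**Figure D5:**
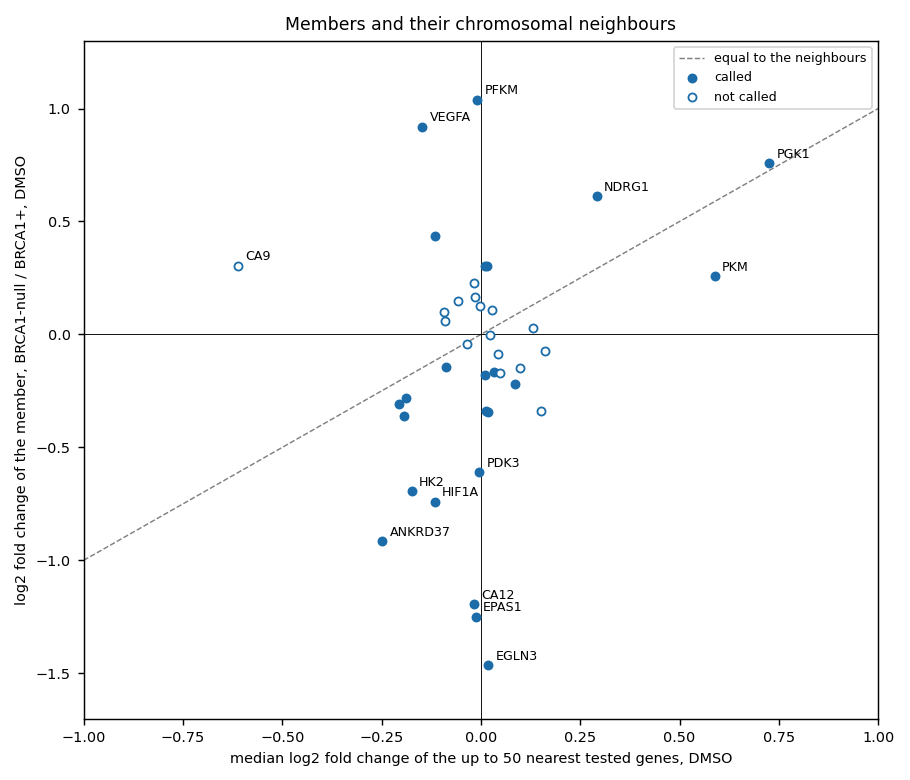
Log2 fold change of each of the 40 genes between BRCA1-null and BRCA1+ cells in DMSO (vertical axis) against the median log2 fold change of its up to 50 nearest tested genes (horizontal axis), with filled points for genes that passed and a dashed line where both are equal. PGK1 lies on the line at 0.76 and 0.73, whereas EGLN3, EPAS1, CA12, PFKM and VEGFA lie far from it with neighbours near 0.

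A further 102 tested genes of glycolysis, gluconeogenesis, the pentose phosphate pathway, HIF regulation and the hypoxia response placed these values in their pathways. In DMSO 18 were higher and 30 lower in BRCA1-null cells, a median log2 fold change of -0.08, so that 47.1% were called against 42.2% of all genes. The pentose phosphate and glycogen genes held 3 higher and 9 lower of 16, or 75% called. Of 16 HIF regulators 4 were lower and none higher with edgeR (0 higher at an unadjusted p under 0.05, and 0 with DESeq2). That is 25% called, all lower, against 42.2% of all genes called and 21% lower. Among the lower ones was CITED2, which competes with HIF for its coactivators (-1.26 ± 0.20, edgeR adjusted p = 0.000872). Of 37 other hypoxia response genes 6 were higher and 9 lower, or 40.5% called. The creatine transporter SLC6A8 (2.46 ± 0.10, edgeR adjusted p = 5.94e-07) and the hexokinase relative HKDC1 (1.58 ± 0.16, edgeR adjusted p = 8.61e-05) were higher. PC, pyruvate carboxylase, was lower (-0.85 ± 0.13, edgeR adjusted p = 0.000675).

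Under entinostat 19 of the 102 genes were higher and 31 lower in BRCA1-null cells, 49.0% against 39.4% of all genes. SLC6A8 (2.06 ± 0.10, edgeR adjusted p = 1.83e-06) was again higher, as was IGFBP3, a binding protein of insulin-like growth factors (1.17 ± 0.08, edgeR adjusted p = 1.25e-05). CITED2 (-1.35 ± 0.20, edgeR adjusted p = 0.0006), ANGPTL4, a lipoprotein lipase inhibitor (-1.05 ± 0.18, edgeR adjusted p = 0.00176), and PC (-0.96 ± 0.12, edgeR adjusted p = 0.000328) were the lowest of the named genes.

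With entinostat 14 of the 102 genes rose and 10 fell in BRCA1+ cells, and 11 rose and 4 fell in BRCA1-null cells, which is 23.5% against 14.1% of all genes and 14.7% against 10.8%, respectively. The muscle enolase ENO3 rose from 11 and 8.69 to 30.2 and 23.2 CPM in BRCA1+ (1.43 ± 0.18, edgeR adjusted p = 0.00181) and from 17.1 and 13.7 to 38.8 and 32.9 CPM in BRCA1-null cells (1.23 ± 0.16, edgeR adjusted p = 0.00314). HKDC1 rose in both lines as well (1.32 ± 0.17, edgeR adjusted p = 0.00241, and 0.72 ± 0.13, edgeR adjusted p = 0.0101). PGF, a relative of VEGFA, rose in BRCA1+ (0.80 ± 0.16, edgeR adjusted p = 0.0113) and BRCA1-null cells (0.50 ± 0.13, edgeR adjusted p = 0.0471). KDELR3, a receptor that returns proteins to the endoplasmic reticulum, also rose in both (0.74 ± 0.10, edgeR adjusted p = 0.00255, and 0.81 ± 0.10, edgeR adjusted p = 0.00251). IGFBP3 fell in both (-0.83 ± 0.08, edgeR adjusted p = 0.000758, and -0.32 ± 0.08, edgeR adjusted p = 0.0354). In BRCA1+ cells the glycogen branching enzyme GBE1 (-0.58 ± 0.09, edgeR adjusted p = 0.00523) and the secreted STC2 (-0.42 ± 0.09, edgeR adjusted p = 0.0205) also fell. The HIF coactivators fell in both lines, CREBBP by a log2 fold change of -0.38 ± 0.06 (edgeR adjusted p = 0.00566) in BRCA1+ and -0.40 ± 0.06 (edgeR adjusted p = 0.0061) in BRCA1-null cells and EP300 by -0.40 ± 0.09 (edgeR adjusted p = 0.019) and -0.33 ± 0.09 (edgeR adjusted p = 0.0438). Leaving out a single library could end the calls of PGF, STC2 and EP300 in BRCA1+ cells and those of HKDC1, PGF, IGFBP3, CREBBP and EP300 in BRCA1-null cells. None of the 102 genes passed the interaction test with edgeR (8 at an unadjusted p under 0.05), which 0 of all genes tested passed, and none did with DESeq2.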

How the data were processed

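Poly(A) RNA-seq libraries were prepared with a kit that does not mark strand. The authors used TopHat 2 for alignment to hg19 and NGSUtils for quantification by gene symbol, and the deposited values are raw read counts with a transcript length in bases. Multi-position reads and the gene annotation release are not given in the sources used here. A nameless entry held 0 counts and was dropped. Genes were filtered with filterByExpr, scaled by TMM (edgeR 4.0.16, R 4.3.3) and fitted over the 4 groups of 2 libraries (4 residual degrees of freedom) with glmQLFit and glmQLFTest, two-sided, with Benjamini-Hochberg adjustment over all 17714 genes. The script was tested on simulated data. Errors of log2 fold changes are SEs and those of CPM are SDs.

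Samples were grouped by title. The 40 genes and the lists were chosen with earlier results of these data known. Named with fold changes were, per comparison, up to 6 called genes in each direction and the paralogs (those not called in DMSO only, otherwise as ranges), and of the other pathway genes up to 3 in each direction of mean log2 CPM 3 or more (in both lines where called with entinostat in both), except for some that are not reported here. Counts of 3 per library were taken as the floor. Intervals cover counting error and replicate spread only. The 17 alternatives were DESeq2 1.42.0 size factors and Wald test, upper-quartile factors, other filters, the likelihood ratio test, a replicate block, only the groups compared, thinned counts and each library left out. A fold threshold was also applied to the counts of calls and is not one of the 17.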

Additional observations from a re-analysis of the deposited data

Results flagged for a closer look

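SLC2A3 did not pass with entinostat in either line, but its log2 fold changes had opposite signs, 0.59 in BRCA1+ and -0.76 in BRCA1-null cells. BRCA1+ libraries had 21 and 27 counts under DMSO and 20 and 46 under entinostat. BRCA1-null libraries had 20 and 24 counts under DMSO and 11 and 12 under entinostat. The log2 fold changes differed by -1.35 (unadjusted p = 0.03 in edgeR), which did not pass after adjustment over all genes (adjusted p = 0.967).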

How the results depend on the processing

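Of 53 named calls among the 40 genes, 25 held under all 17 alternatives, 28 were lost under at least 1 and 0 reversed. Adding a log2 fold change of at least 1 left 4 of the 40 genes between the lines in DMSO, 5 in entinostat and 0 with entinostat in either line, and 11, 13, 6 and 3 of the other pathway genes. Labels do not say that a replicate number marks a shared batch, although same-numbered libraries deviated together (correlation 0.234 to 0.718 over 10405 genes). The replicate block moved calls with entinostat to 15 in the BRCA1+ line and 11 in the BRCA1-null line, and to 27 for the other pathway genes in BRCA1-null cells, where fitting only the groups compared gave 6. All genes gained calls with the block too. In BRCA1+ cells 2292 rose and 2022 fell, against 1441 and 1062 without it. In BRCA1-null cells 2298 rose and 1342 fell, against 1341 and 565, and fitting only the groups compared gave 509 and 184. Among the calls that the block added were HIF1A, higher with entinostat in both lines, and SLC16A3, higher in BRCA1+ cells. No interaction call of the 40 genes appeared with edgeR, DESeq2, the likelihood ratio test or the replicate block, and edgeR called 0 of all 17714 genes tested.

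Leaving out 1 library gave 14 to 23 of the 40 genes between the lines in DMSO and 14 to 23 in entinostat, 2 to 7 with entinostat in BRCA1+ and 1 to 5 in BRCA1-null cells, and for the other pathway genes 37 to 49, 31 to 50 (31 without BRCA1+ entinostat replicate 2), 9 to 23 (9 to 12 without any single BRCA1+ library) and 5 to 13 (5 without BRCA1-null control replicate 2 or entinostat replicate 1, 8 without entinostat replicate 2). In DMSO the difference of ALDOA between the lines reversed to 0.041 with upper-quartile factors, 0.038 with the stricter filter, 0.00022 with only the groups compared and 0.0064 with thinned counts, and that of LDHA to 0.0027 with upper-quartile factors. Without 1 library it ranged from -0.026 to 0.043 for ALDOA, -1.17 to 0.35 for ALDOC, -0.085 to 0.023 for LDHA, -0.0077 to 0.086 for EGLN1, -0.25 to 0.67 for CA9 and -0.15 to 0.011 for BNIP3L. The cause was not tested. Depth limits CA9, SLC2A3 and ALDOC, which the stricter filter removed together with ANKRD37.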
